A study of Mus musculus with 8 samples.

Results

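A set of 8 long noncoding RNAs (Neat1, Malat1, Gas5, Dancr, Snhg1, Snhg6, Snhg8 and Snhg12) was examined in hepatocytes of Taf2 knockout (KO) and wild-type mice. They were taken by gene symbol from a table of 24411 genes, and all 8 had a row and passed the filter on low counts, as did 12122 genes in all. Taf2 was deleted conditionally and in hepatocytes alone in the KO mice (genotype label TAF2 KO, 4 libraries), and wild-type mice (WT, 4 libraries) served as controls. Isolated hepatocytes were plated, harvested after 2 days and sequenced from total RNA. The labels give no age, sex, strain, Cre line or count of animals, and do not say whether the libraries of a genotype came from separate animals or cultures. P-values therefore measure only the spread between these libraries, which may be technical.

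Neat1 and Malat1 lie next to each other in the genome and stay in the nucleus. Neat1 is the scaffold of paraspeckles, bodies that hold RNA-binding proteins, and comes as a short polyadenylated form and a long form that builds the body. Malat1 accumulates at nuclear speckles, where splicing factors gather, and RNase P cuts its 3′ end. The other 6 genes carry small nucleolar RNAs (snoRNAs), which guide the chemical modification of ribosomal RNA and are mostly cut out of introns. The spliced host transcripts carry little coding capacity, many begin with a run of pyrimidines as messenger RNAs of the translation machinery do, and several are degraded by nonsense-mediated decay. TAF2 is a subunit of TFIID, the complex that recognises core promoters, and contacts DNA around the transcription start.

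The snoRNAs of the hosts are of 2 classes, and 1 example from each host is shown, among those with a separate row in the deposited table. Box C/D snoRNAs guide methylation of ribose, and capitals mark the C box (TGATGA) and the D box (CTGA) where a search found them. Box H/ACA snoRNAs guide pseudouridylation, and capitals mark the ACA box near the 3′ end. Beside Snord99, Snhg12 carries Snora16a, Snora44 and Snora61, box H/ACA snoRNAs by symbol that also have rows and are not printed. Sequences are those of the GENCODE annotation of build mm10, 5′ to 3′. Snord47 lies at chr1:161038082-161038158 on the plus strand in Gas5, Snord22 at chr19:8725866-8725991 on the plus strand in Snhg1, Snord87 at chr1:9942463-9942549 on the minus strand in Snhg6 and Snord99 at chr4:132310691-132310764 on the plus strand in Snhg12. Snora26 lies at chr5:74093530-74093650 on the plus strand in Dancr, and Snora24 at chr3:123507937-123508066 on the minus strand in Snhg8.
Snord47 (Gas5): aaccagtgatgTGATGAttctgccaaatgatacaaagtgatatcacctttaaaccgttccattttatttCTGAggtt
Snord22 (Snhg1): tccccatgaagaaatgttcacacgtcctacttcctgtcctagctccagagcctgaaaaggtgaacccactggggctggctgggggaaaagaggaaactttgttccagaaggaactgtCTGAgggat
Snord87 (Snhg6): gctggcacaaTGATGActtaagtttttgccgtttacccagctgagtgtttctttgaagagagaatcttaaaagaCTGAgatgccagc
Snord99 (Snhg12): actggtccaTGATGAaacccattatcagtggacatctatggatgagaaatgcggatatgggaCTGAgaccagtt
Snora26 (Dancr): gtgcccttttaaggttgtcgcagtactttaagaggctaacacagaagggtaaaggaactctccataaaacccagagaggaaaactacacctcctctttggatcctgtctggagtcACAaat
Snora24 (Snhg8): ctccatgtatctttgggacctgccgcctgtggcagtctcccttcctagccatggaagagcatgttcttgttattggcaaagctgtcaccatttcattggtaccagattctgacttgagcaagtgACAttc

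Promoter sequences are shown because the hosts that rose most in KO hepatocytes and those that did not can then be read side by side. Each runs from 60 bases before to 40 bases from the RefSeq transcription start (build GRCm38.p6), and 6 of the 8 genes were matched in the RefSeq promoter table. Capitals mark the letters TATA where they begin 40 to 20 bases before the start on the strand of the gene, and a run of at least 5 pyrimidines that reaches into the window from 5 bases before to 5 bases after the start, whether or not it covers the start itself. This search was chosen after the values were seen. The windows are chr4:132308618-132308717 (plus strand, Snhg12), chr19:8723427-8723526 (plus, Snhg1), chr3:123508297-123508396 (minus, Snhg8), chr1:161035106-161035205 (plus, the downstream of 2 Gas5 starts), chr5:74093000-74093099 (plus, Dancr) and chr19:5802633-5802732 (minus, Malat1).
Snhg12: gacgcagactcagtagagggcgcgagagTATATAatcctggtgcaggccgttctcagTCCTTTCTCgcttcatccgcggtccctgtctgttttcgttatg
Snhg1: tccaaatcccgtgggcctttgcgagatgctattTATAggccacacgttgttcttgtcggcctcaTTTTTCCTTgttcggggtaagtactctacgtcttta
Snhg8: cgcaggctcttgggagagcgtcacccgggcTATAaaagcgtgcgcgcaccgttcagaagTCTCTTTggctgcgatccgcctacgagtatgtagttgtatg
Gas5: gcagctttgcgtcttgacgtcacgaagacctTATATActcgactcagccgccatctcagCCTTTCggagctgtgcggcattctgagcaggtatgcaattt
Dancr: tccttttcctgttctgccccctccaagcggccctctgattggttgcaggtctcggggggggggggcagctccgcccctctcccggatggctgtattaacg
Malat1: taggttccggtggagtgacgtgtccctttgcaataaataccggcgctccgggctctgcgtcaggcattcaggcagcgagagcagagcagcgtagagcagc

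Library totals were 20287031 to 23933585 counts in KO hepatocytes and 18947060 to 22824561 in WT hepatocytes. Taf2, the targeted gene, was at 13.9 ± 1.26 CPM in KO and 44.0 ± 2.05 CPM in WT libraries (CPM, counts scaled to a common library size by TMM, SD, n = 4 each). Its log2 fold change was -1.66 (SE 0.0612, edgeR adjusted p = 9.03e-15), or 0.316-fold. Taf2 RNA was thus reduced but not absent, with 269 to 329 counts in KO libraries, and the source of the remainder was not tested. Hepatocyte markers were abundant in both genotypes, with summed levels of 83142 to 90558 CPM in KO and 71552 to 76427 CPM in WT libraries; 6 of 13 tested were higher and 5 lower. Markers of other liver cells also differed by genotype. Of the macrophage markers 13 of 13 tested were higher in KO, with summed levels of 327 to 357 CPM against 153 to 178 CPM in WT. Endothelial markers were higher in 11 of 11 (171 to 180 CPM in KO, 67.5 to 75.7 CPM in WT), and stellate cell markers in 9 of 11, with 1 lower (144 to 159 CPM in KO, 72.0 to 77.3 CPM in WT). Of 5 cholangiocyte markers tested 2 were higher and 3 lower (171 to 199 CPM in KO, 136 to 151 CPM in WT). Such sums rest mostly on the most abundant markers of each list. The median log2 fold change was 2.11 for macrophage, 1.6 for endothelial, 2.18 for stellate cell and -0.27 for cholangiocyte markers. No marker was at 0 in all 8 libraries, and the part of these cells in the results that follow was not tested. More RNA per cell and more cells of a type cannot be told apart in such bulk samples.

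Of the 8 RNAs, 5 were higher in KO hepatocytes (Neat1, Snhg1, Snhg6, Snhg8 and Snhg12), Dancr was lower, and neither Malat1 nor Gas5 was called. A call means an adjusted p under 0.05 in edgeR's quasi-likelihood test over all genes. Calls were common in this comparison: 61.4% of the genes tested passed, 30.2% of them higher and 31.2% lower in KO as shares of all tested, so 6 calls among 8 genes are near what the whole table gives. The levels of the 2 genotypes did not overlap for 5 of the 8 RNAs, against 54.7% of all genes tested. Of those 5, 4 were higher in KO and 1 lower, against 26.9% higher and 27.8% lower without overlap among all genes tested. The sizes differed widely among the 8. The log2 fold changes of Snhg12 and Snhg1 stood at the 92.4 and 89.2 percentiles of all genes, and that of Dancr at the 10.2 percentile. Neat1, although called, had a change smaller in size than 72.7% of all genes tested.

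**Figure D1:**
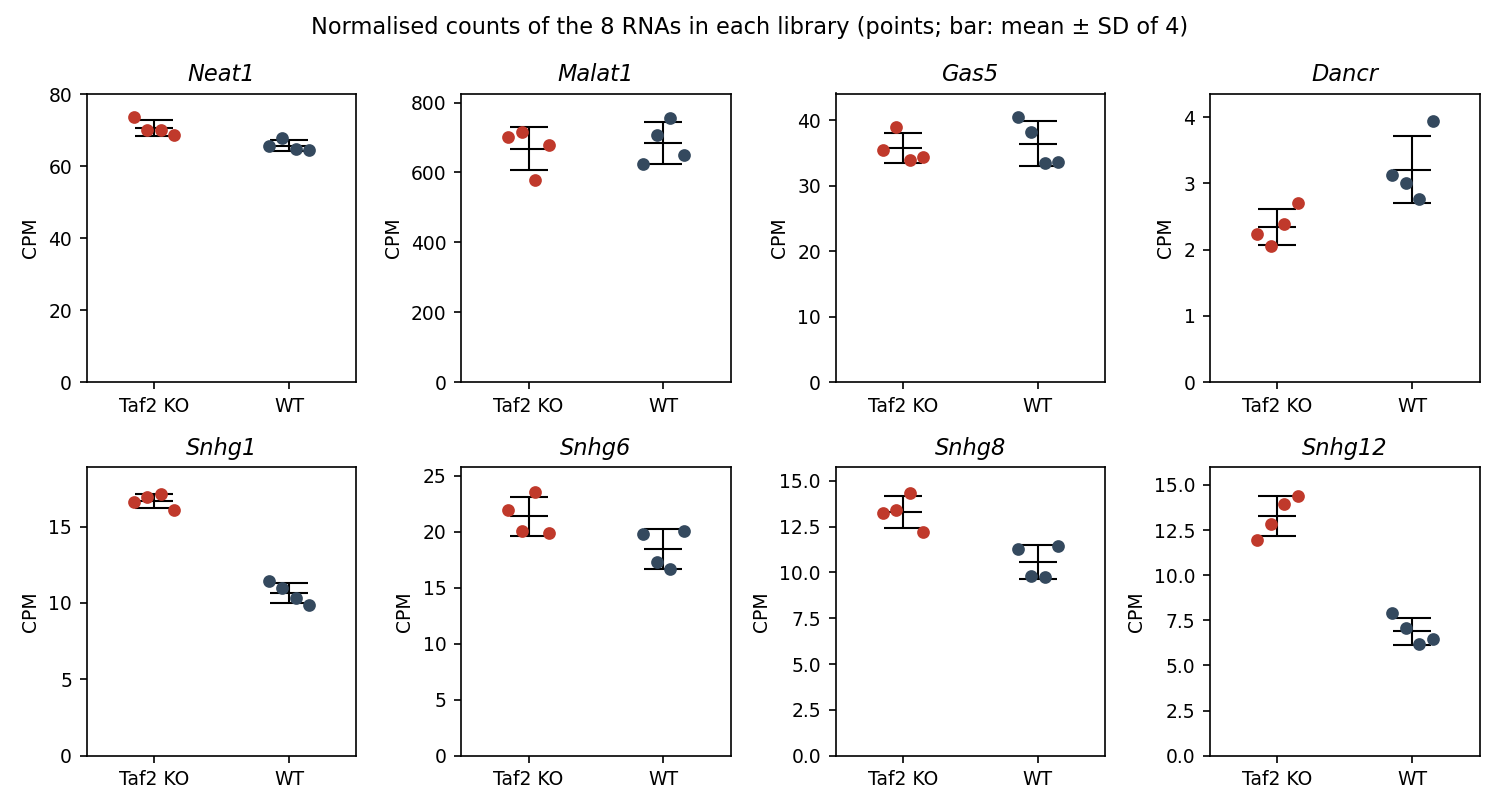
Normalised level (CPM, vertical axes from 0) of each RNA in every library, with Taf2 KO on the left and WT on the right of each panel. Points are libraries and bars the mean ± SD of 4; Snhg1 (16.7 CPM in KO, 10.7 CPM in WT) and Snhg12 (13.3 CPM in KO, 6.91 CPM in WT) are the best separated, whereas the points of Malat1 and Gas5 overlap.

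Neat1 (chr19:5824708-5845478, minus strand, mm10, a lincRNA gene with 2 models in the table) was slightly higher in KO hepatocytes. Its level was 73.85, 70, 70.07 and 68.78 CPM in the 4 KO libraries, against 65.77, 67.95, 64.88 and 64.56 CPM in the WT libraries. Every KO library lay above every WT library, with a gap between the lowest KO and the highest WT value that was smaller than the spread within either genotype. The log2 fold change was 0.10 (95% interval 0.03 to 0.18, SE 0.0356, edgeR adjusted p = 0.0162), and the exact two-sided permutation p was 0.0286, the smallest that 4 against 4 allows. The call was lost with library totals in place of TMM scaling (0.08, adjusted p = 0.0674) and without KO library 1 (0.09, adjusted p = 0.0615), WT library 3 (0.10, adjusted p = 0.0567) or WT library 4 (0.09, adjusted p = 0.0535), each from edgeR. The short model of 3004 bases lies within the long one of 20771 bases, and the gene count does not separate these forms.

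Malat1 (chr19:5795690-5802672, minus strand, a single-exon lincRNA gene of 6983 bases) was at 701.58, 715.47, 578.6 and 678.1 CPM in KO and 624.13, 706.63, 755.96 and 650.75 CPM in WT libraries. The ranges overlapped, with the lowest value in KO library 3 and the highest in WT library 3. The log2 fold change was -0.03 (95% interval -0.16 to 0.09, edgeR adjusted p = 0.646). Its sign turned without KO library 3 (0.03) or without WT library 3 (0.02), and the call did not. The interval of Malat1 thus includes a fall larger than the rise of Neat1, and reaches close to that rise on the upper side.

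Because Neat1 and Malat1 were counted in the same libraries, their ratio does not depend on how libraries are scaled. The log2 ratio of Neat1 to Malat1 counts (0.5 added to each) was -3.25, -3.35, -3.05 and -3.30 in KO libraries, and -3.25, -3.38, -3.54 and -3.33 in WT libraries. KO library 3 had the highest ratio and WT library 3 the lowest, and the groups overlapped. The means were -3.24 ± 0.135 in KO and -3.37 ± 0.124 in WT (SD, n = 4 each), and the difference of 0.14 gave an exact two-sided permutation p of 0.229. A shift of Neat1 relative to Malat1 was thus not resolved with these libraries. Frmd8, a coding gene within 10 kb of Neat1, was at 73.8 ± 3.36 CPM in KO and 75.6 ± 3.34 CPM in WT, a log2 fold change of -0.04 (edgeR adjusted p = 0.461).

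Snhg12 had the largest change of the 8 RNAs. Snhg12 (chr4:132308623-132311024, plus strand, a lincRNA gene whose counted model has 5 exons and 606 bases) carries 4 annotated snoRNA loci, all in introns of that model. It was at 11.93, 12.84, 13.92 and 14.4 CPM in KO libraries, against 7.9, 7.05, 6.21 and 6.47 CPM in WT libraries. The lowest KO value was well above the highest WT value. Snhg12 had a log2 fold change of 0.94 (95% interval 0.75 to 1.12, SE 0.0876, edgeR adjusted p = 1.37e-08), or 1.91-fold. Only 10.5% of the genes tested had a change larger in size. Trnau1ap, which encodes a factor that binds the selenocysteine tRNA, ends 739 bases past the end of Snhg12 on the opposite strand. It was at 36.5 ± 1.37 CPM in KO and 26.9 ± 2.11 CPM in WT (SD, n = 4 each), a log2 fold change of 0.44 (SE 0.0556, edgeR adjusted p = 8.74e-07) with no overlap. Their annotated models do not overlap.

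Snhg1 (chr19:8723475-8726443, plus strand) has 8 snoRNA loci, none of which overlaps an exon of the counted model of 10 exons and 605 bases. Its level was 16.59, 16.94, 17.12 and 16.11 CPM in KO libraries and 11.41, 10.98, 10.33 and 9.89 CPM in WT libraries. The 2 groups stood apart, each with little spread (SD 0.446 CPM in KO, 0.677 CPM in WT). Relative to WT, its log2 fold change was 0.65 (95% interval 0.51 to 0.79, SE 0.0671, edgeR adjusted p = 6.21e-08). Snhg1 starts 106 bases from Slc3a2, a heavy chain of amino acid transporters transcribed from the opposite strand. Slc3a2 was at 377.0 ± 4.72 CPM in KO and 364.0 ± 12.4 CPM in WT, a log2 fold change of 0.05 (95% interval -0.02 to 0.12, edgeR adjusted p = 0.197). The interval of Slc3a2 lies wholly below that of Snhg1, its divergent neighbour. Wdr74, a ribosome assembly factor on the other side, had a log2 fold change of 0.07 (95% interval -0.04 to 0.19, edgeR adjusted p = 0.263).

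Snhg8 (chr3:123507552-123508404, minus strand) has 1 snoRNA locus, which overlaps its single counted exon. It was at 13.25, 13.39, 14.35 and 12.22 CPM in KO libraries, against 11.28, 9.82, 9.76 and 11.43 CPM in WT libraries. The groups did not overlap, although the lowest KO and the highest WT libraries were close. Snhg8 had a log2 fold change of 0.33 (95% interval 0.17 to 0.49, SE 0.0768, edgeR adjusted p = 0.000976). Its neighbour Prss12 had at most 1 count in any library and was not tested.

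Snhg6 (chr1:9941959-9944118, minus strand, 4 exons, 400 bases) carries 1 intronic snoRNA locus. It was at 21.97, 20.04, 23.52 and 19.9 CPM in KO libraries and 19.83, 17.26, 16.65 and 20.1 CPM in WT libraries. The groups overlapped, since WT library 4 lay above KO libraries 2 and 4. The edgeR log2 fold change was 0.21 (95% interval 0.06 to 0.36, SE 0.073, edgeR adjusted p = 0.0178), whereas the exact two-sided permutation p was 0.0857. The edgeR call was lost without KO library 3 (0.16, adjusted p = 0.0672), WT library 2 (0.18, adjusted p = 0.0636) or WT library 3 (0.16, adjusted p = 0.0626). Without WT library 3, 3 of the 8 RNAs were called higher. Mcmdc2, which overlaps Snhg6, on the opposite strand, had at most 2 counts in a library. Reads from the stretch that Mcmdc2 and Snhg6 share cannot be told apart without the strand setting.

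Gas5 (chr1:161034422-161038539, plus strand, 4 exons, 2556 bases) hosts the most snoRNA loci of the 6, with 9 by annotated type. Of these, 6 overlap exons of the counted model, among them Mir5117, which bears a microRNA symbol. Gas5 was at 35.38, 39.02, 33.98 and 34.44 CPM in KO libraries and 40.43, 38.16, 33.46 and 33.54 CPM in WT libraries. The ranges nearly coincided, and within WT the libraries split into 2 higher and 2 lower values. The log2 fold change was -0.03 (95% interval -0.16 to 0.10, edgeR adjusted p = 0.682). Its sign turned without WT library 1 (0.02). The interval excludes a change as large as those of Snhg8, Snhg1 and Snhg12 as measured. Zbtb37 overlaps Gas5 on the opposite strand, and since the strand setting of the counting is not given, reads from the shared stretch cannot be told apart. With 43 to 58 counts in KO and 42 to 56 in WT libraries, Zbtb37 had a log2 fold change of -0.08 (edgeR adjusted p = 0.692), which turned to 0.03 without KO library 1.

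Dancr was the only one of the 8 RNAs that was lower in KO hepatocytes. Dancr (chr5:74093060-74095406, plus strand, 2 exons, 1036 bases) has 1 snoRNA locus, Snora26, that overlaps an exon of the counted model. It was at 2.24, 2.05, 2.38 and 2.70 CPM in KO libraries, against 3.12, 3.01, 2.77 and 3.94 CPM in WT libraries. The groups did not overlap, with KO library 4 just below WT library 3. The counts behind these levels were low, 41 to 57 in KO and 53 to 84 in WT libraries, and in 3 libraries they were not whole, so some reads were shared with other genes. The log2 fold change was -0.46 (95% interval -0.76 to -0.15, SE 0.146, edgeR adjusted p = 0.0105). Without WT library 4, the highest, it was -0.35 (adjusted p = 0.0559), and no RNA of the 8 was then called lower.

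**Figure D2:**
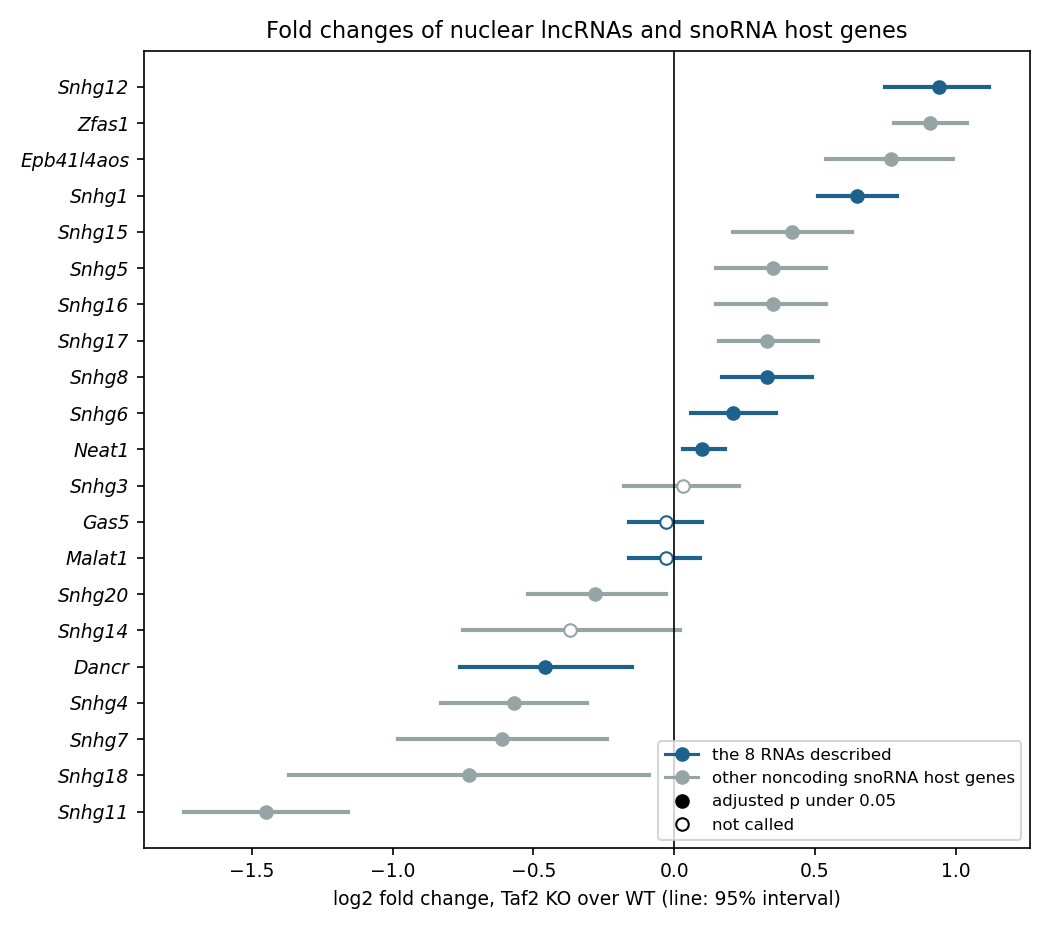
Log2 fold change, Taf2 KO over WT (horizontal axis), with its 95% interval, of the 8 RNAs (blue) and the 13 other noncoding snoRNA hosts tested (grey); filled points passed the adjusted p of 0.05. Snhg12 (0.94) and Zfas1 (0.91) lie at the top and Snhg11 (-1.45) at the bottom, so hosts of this kind are found on both sides of 0.

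Levels of different genes can be set side by side only per length, and were divided by the length of the GENCODE transcript that carries the table's RefSeq accession. On that scale Malat1 was highest, at 95.7 CPM per kb in KO and 98.0 CPM per kb in WT. Snhg6 followed at 53.4 in KO and 46.1 in WT, then Snhg1 at 27.6 in KO and 17.6 in WT, all in CPM per kb. Neat1 was at 23.5 CPM per kb in KO and 21.9 in WT with its short model, and at 3.4 in KO and 3.17 in WT with its long one. Snhg12 was at 21.9 CPM per kb in KO and 11.4 in WT, Snhg8 at 17.1 in KO and 13.6 in WT, and Gas5 at 14 in KO and 14.2 in WT. Dancr was lowest, at 2.26 CPM per kb in KO and 3.1 in WT. The Gas5 length is that of a model of 4 exons and 2556 bases, whose exons overlap 6 of its 9 snoRNA loci. With that length, and 606 bases for Snhg12, Snhg12 stood above Gas5 in KO hepatocytes and below it in WT hepatocytes. A shorter Gas5 model would give Gas5 higher values, so this order depends on the model used. The order of Neat1 depends on which of its forms was counted.

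The hosted snoRNAs had hardly any counts in rows of their own. The table lists 119 snoRNA genes, of which 26 had any count, and no snoRNA reached more than 5 counts in a library or passed the filter. Of the 9 that lie inside the 6 hosts, Snora26 and Snord22 had counts. Snora26 had 0 in all 4 KO libraries and 1, 1, 1 and 0 counts in the WT libraries. Snord22 had 0, 5, 3 and 0 counts in KO and 1, 2, 1 and 4 counts in WT libraries. These counts are too low for a comparison, so the changes above are those of the host rows. In Gas5, Dancr and Snhg8, snoRNA loci overlap exons of the counted model. Reads of host and snoRNA cannot be told apart at those loci.

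The promoter windows shown above hold TATA 32, 27 and 30 bases before the start in Snhg12, Snhg1 and Snhg8, the hosts that rose with no overlap between genotypes, and 29 bases before the downstream start of Gas5, which was not called. Dancr and Malat1 have no such letters there, and neither has the upstream start of Gas5. Which Gas5 start the counted RNA came from is not known. The longest pyrimidine run that reaches within 5 bases of the start had 9 letters in Snhg12 and Snhg1, 7 in Snhg8, 4 in Malat1 and 1 in Dancr. In Gas5 it had 6 letters at the downstream start and 3 at the upstream start. The run covers the start in Snhg12 and Snhg8 and the downstream start in Gas5. It lies downstream of the start in Snhg1 and Dancr, and ends upstream of it in Malat1. TATA was found in the same window in 6.79% of the 27025 genes with a RefSeq promoter and in 4.14% of those tested here, and a run of 6 or more in 24.0% and 24.9%. Both were found in 1.45% of the tested genes, and the search was chosen after the values were seen. A link between these letters and the changes was not tested. Among the other noncoding hosts, TATA was found in Snhg5, which was higher in KO (log2 fold change 0.35, edgeR adjusted p = 0.00336), and in Snhg7, which was lower (-0.61, edgeR adjusted p = 0.0053). It was not found in Snhg15 (0.42), Snhg16 (0.35) or Snhg17 (0.33), which were higher in KO with no overlap between genotypes. Nor was it found in Snhg11 (-1.45), Snhg18 (-0.73) or Snhg20 (-0.28), which were called lower. The longest pyrimidine run had 3 letters in Snhg5, 4 in Snhg15 and Snhg16, and 6 in Snhg17, all higher in KO. It had 10 letters in Snhg18, 6 in Snhg7, 3 in Snhg11 and 2 in Snhg20, all lower. Snhg4, Zfas1 and Epb41l4aos were not matched in the promoter table. Across all tested genes with a match in the promoter table (9715, or 80.1%), 44.5% of the 402 with TATA were higher in KO and 28.6% lower, with a median log2 fold change of 0.10. Of the 9313 without it, 29.3% were higher and 31.1% lower, with a median of -0.00781. These shares describe genes, which are not independent replicates, and a match of letters is not a shown binding site.

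**Figure D3:**
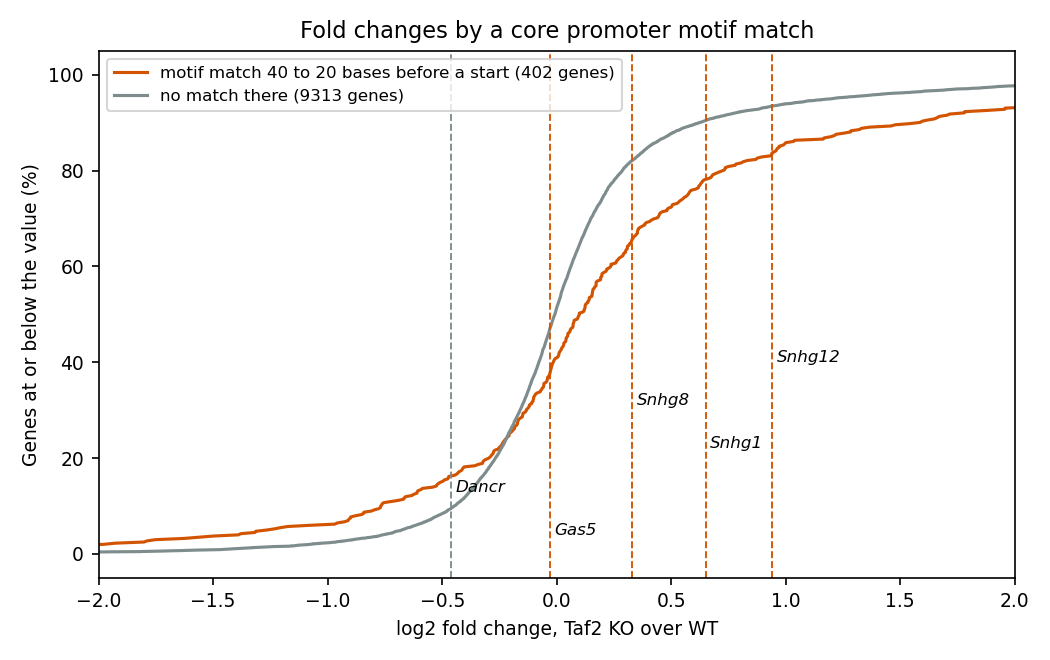
Cumulative share of genes (percent, vertical axis) at or below each log2 fold change, Taf2 KO over WT (horizontal axis), for 402 genes with the letters TATA 40 to 20 bases before a start and 9313 without. Dashed lines mark the 5 snoRNA hosts with a promoter entry, coloured as the group they belong to; the curve of genes with the match lies to the right over its upper part and is also wider at its lower end.

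The 13 other noncoding snoRNA hosts that could be tested moved in both directions, with 6 higher and 5 lower in KO and a median log2 fold change of 0.0272, against -0.00347 over all genes. Zfas1, host of box C/D snoRNAs, was at 29.12, 27.93, 32.59 and 30.03 CPM in KO and 15.84, 16.28, 14.67 and 17.01 CPM in WT libraries. Its log2 fold change of 0.91 (SE 0.0632, edgeR adjusted p = 1.51e-10) was close to that of Snhg12. Epb41l4aos was at 9.84 ± 1.29 CPM in KO and 5.77 ± 0.746 CPM in WT (0.77, adjusted p = 3.22e-06), and Snhg15 at 7.36 ± 0.177 CPM in KO and 5.49 ± 0.847 CPM in WT (0.42, adjusted p = 0.00142). Snhg11 fell most, at 2.45, 1.85, 1.95 and 2.79 CPM in KO and 5.81, 6.71, 5.17 and 7.03 CPM in WT libraries (-1.45, SE 0.14, adjusted p = 2.09e-08). The count of lower calls was 3 with upper-quartile scaling, DESeq2, a replicate block or thinning, and without KO library 1, KO library 3, WT library 3 or WT library 4, each in turn. With the 6 hosts of the set, 10 of 19 noncoding hosts were higher and 6 lower. These are 52.6% and 31.6%, against 30.2% higher and 31.2% lower over all genes tested.

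Protein-coding hosts of snoRNAs were read in the same way, beside the 30.2% higher and 31.2% lower over all genes tested. Of 24 ribosomal protein genes that host snoRNAs, 9 were higher and 0 lower in KO (edgeR; median log2 fold change 0.0537), with 0 lower also at an unadjusted p under 0.05 and by DESeq2 and limma-voom. With library totals alone, without WT library 2 or without WT library 3, 1 was lower. Rps3a1 was at 855.0 ± 19.6 CPM in KO and 741.0 ± 36.9 CPM in WT (0.20, edgeR adjusted p = 9.53e-05), and Rpl5 at 901.0 ± 16.6 CPM in KO and 797.0 ± 42.4 CPM in WT (0.18, adjusted p = 0.000482). Of 17 other coding hosts 6 (35.3%) were higher and 3 (17.6%) lower. Eif4a2, a translation initiation helicase that hosts several snoRNAs, was at 405.87, 395.01, 467.42 and 405.25 CPM in KO and 209.16, 237.29, 205.08 and 223.19 CPM in WT libraries. Its log2 fold change of 0.94 (SE 0.052, edgeR adjusted p = 4.46e-12) equalled that of Snhg12. Hspa8, the constitutive HSP70 chaperone, was at 2587 ± 19.5 CPM in KO and 2850 ± 59.2 CPM in WT (-0.14, adjusted p = 0.00089).

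Proteins that make or hold these RNAs were read from lists. Of 17 proteins of box C/D and H/ACA particles and their assembly, 6 were higher and 1 lower. These are 35.3% and 5.88%, against 30.2% higher and 31.2% lower over all genes tested. Naf1, an assembly factor of H/ACA particles, was at 23.9 ± 3.04 CPM in KO and 16.8 ± 0.456 CPM in WT (log2 fold change 0.52, edgeR adjusted p = 6.25e-06). Nop58 and Nop56, partners in the core of box C/D particles, went opposite ways. Nop58 was at 154.0 ± 2.92 CPM in KO and 140.0 ± 6.32 CPM in WT (0.13, adjusted p = 0.00485), and Nop56 at 152.0 ± 5.91 CPM in KO and 166.0 ± 4.37 CPM in WT (-0.13, adjusted p = 0.00461).

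Of 17 paraspeckle proteins, which bind Neat1, 4 were higher and 6 lower (median -0.0695). These are 23.5% and 35.3%, against 30.2% and 31.2% over all genes tested. Taf15, an RNA-binding protein, was at 84.8 ± 2.79 CPM in KO and 106.0 ± 2.79 CPM in WT (log2 fold change -0.32, edgeR adjusted p = 1.66e-07). Matr3, a nuclear matrix protein, was higher (118.0 ± 4.7 CPM in KO, 103.0 ± 4.98 CPM in WT, 0.20, adjusted p = 0.000342). Of 21 nuclear speckle and SR proteins, which meet Malat1, 1 was higher and 10 lower (median -0.0744), against 30.2% higher and 31.2% lower over all genes. The splicing factor Srsf1 was at 125.0 ± 6.36 CPM in KO and 158.0 ± 2.45 CPM in WT (-0.34, adjusted p = 3.09e-07). Rbm25 (-0.27, adjusted p = 7.18e-06) and Pnn (-0.23, adjusted p = 2.48e-05) were also lower, and Srsf4 was higher (0.22, adjusted p = 0.00533). Srrm2, a scaffold of speckles, was at 330.0 ± 6.51 CPM in KO and 329.0 ± 10.2 CPM in WT (adjusted p = 0.978). The count of higher speckle genes was 3 without KO library 3 and 2 without KO library 4, WT library 2 or WT library 4.

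Of 11 tested proteins of RNase P, which trims Malat1, and of RNase Z, 1 was higher and 3 lower. These are 9.09% and 27.3%, against 30.2% and 31.2% over all genes tested. Pop1, a subunit of RNase P, was at 17.1 ± 1.71 CPM in KO and 22.0 ± 1.16 CPM in WT (log2 fold change -0.36, edgeR adjusted p = 0.00019), and Elac2, RNase Z, at 31.6 ± 1.22 CPM in KO and 34.9 ± 1.63 CPM in WT (-0.14, adjusted p = 0.0184). The 1 higher call, Rpp30 (0.21, adjusted p = 0.0315), was at 11.8 ± 0.222 CPM in KO and 10.2 ± 1.2 CPM in WT, and no gene was higher without KO library 3, WT library 1, WT library 2 or WT library 3. Of 15 factors of nonsense-mediated decay, 5 (33.3%) were higher and 1 (6.67%) lower. Casc3, a part of the exon junction complex, was at 52.5 ± 1.5 CPM in KO and 43.4 ± 2.42 CPM in WT (0.27, adjusted p = 2.42e-05). Magohb, another part of that complex with a near-identical copy in Magoh, was at 1.93 ± 0.142 CPM in KO and 2.99 ± 0.512 CPM in WT (-0.64, adjusted p = 0.00112). The more abundant Magoh was higher, at 26.1 ± 2.4 CPM in KO and 22.1 ± 1.65 CPM in WT (0.24, edgeR adjusted p = 0.00499), with groups that overlapped.

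**Figure D4:**
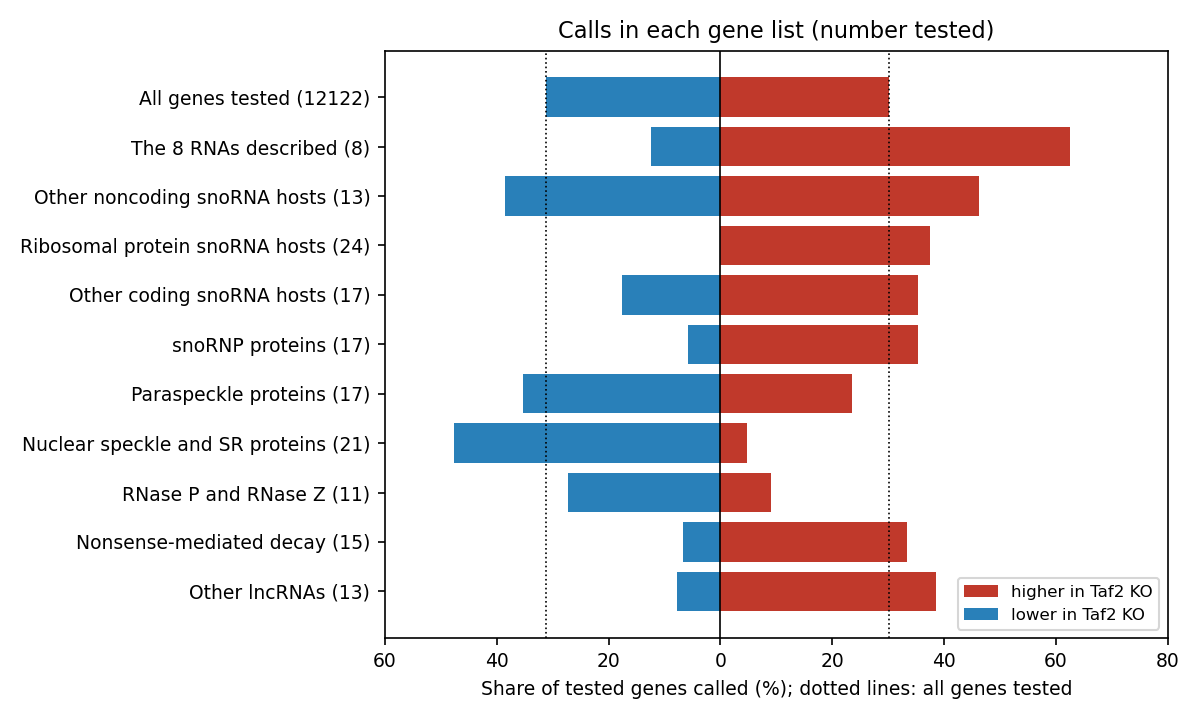
Share of tested genes (percent, horizontal axis) called higher (red, right of 0) or lower (blue, left of 0) in Taf2 KO against WT, for all genes and each list, with the number tested in brackets and dotted lines at the shares over all genes (30.2% higher, 31.2% lower). Nuclear speckle and SR proteins have 4.76% higher and 47.6% lower, and ribosomal protein hosts 37.5% higher and 0 lower.

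Among 13 other long noncoding RNAs tested, 5 were higher and 1 lower (median log2 fold change 0.20). These are 38.5% and 7.69%, against 30.2% and 31.2% over all genes tested. Trp53cor1, also known as lincRNA-p21, was at 1.42 ± 0.272 CPM in KO and 0.665 ± 0.135 CPM in WT (1.09, edgeR adjusted p = 0.000437). Mir22hg, the host of miR-22, was at 29.5 ± 1.09 CPM in KO and 22.4 ± 3.24 CPM in WT (0.39, adjusted p = 0.000142), and Tug1 at 39.6 ± 1.9 CPM in KO and 33.9 ± 2.52 CPM in WT (0.23, adjusted p = 0.00132). The 1 lower RNA was 2900097C17Rik, at 123.0 ± 4.92 CPM in KO and 141.0 ± 7.81 CPM in WT (-0.20, adjusted p = 0.000389). Of 3 small structured RNAs tested, Rn45s, the precursor of ribosomal RNA, and Rpph1, the RNA of RNase P, were higher. Rn45s was at 2619.4, 4952.54, 2116.54 and 1862.86 CPM in KO and 1449.13, 2322.91, 2181.61 and 1536.49 CPM in WT libraries, and the groups overlapped (0.62, adjusted p = 0.0137). Rpph1 was at 1.31 ± 0.315 CPM in KO and 0.733 ± 0.308 CPM in WT (0.84, adjusted p = 0.0146), with 21 to 33 counts in KO and 8 to 21 in WT libraries, and its groups also overlapped. Of these calls 1 was left without KO library 2 or without WT library 4, and 0 (edgeR) without WT library 1.

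The genes whose levels followed those of Neat1, Malat1 and Gas5 most closely over the 8 libraries were taken by the Pearson correlation of log2 CPM, among tested genes averaging 50 CPM or more. These values are descriptions: the libraries are shared and the best of 3687 genes (3688 for Gas5) were taken. For Neat1 they were Fmo5 (0.971), Ugt2b34 (0.969) and Atxn2l (0.968). For Malat1 they were Srrm2 (0.887), Trrap (0.877) and Ep400 (0.869), and for Gas5 Glo1 (0.90), Hsd17b13 (0.896) and Med1 (0.845). The mean levels of Srrm2, Trrap and Ep400 differed little by genotype, with log2 fold changes between -0.06 and 0.0, so that their likeness to Malat1 lies mainly in the spread within genotypes. Fmo5 was at 98.9 CPM in KO and 80.1 CPM in WT, a difference between genotypes in the same direction as that of Neat1.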

How the data were processed

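RNA was sequenced from hepatocytes of 4 Taf2 KO and 4 WT libraries, made with a TruSeq kit per the labels' protocols. The authors deposited expected counts per gene, for which the submitters' processing notes name RSEM and mm10. Its version, the aligner and any use of strand were not given in the sources used here. RSEM divides reads that match several genes, and 2.85% of values were not whole. Counts were rounded. Columns were matched to samples by library name; 8 further sample columns were not used.

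Genes passing filterByExpr (minimum count 10, minimum total 15) were TMM-scaled and compared with edgeR 4.0.16 (quasi-likelihood, R 4.3.3), genotype only, adjusted by Benjamini-Hochberg over 12122 genes at 0.05. The common biological coefficient of variation was 4.57%. Single values were also compared by exact two-sided permutation tests. Libraries of the same genotype all differed from each other beyond counting noise, and each was counted as 1 replicate. Alternatives used limma 3.58.1 and DESeq2 1.42.0, other scalings and filters, a replicate block, thinning, and leaving out each library.

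The members and lists were chosen with earlier results of these data known. Named genes are Taf2, the members, their neighbours within 10 kb, and per list up to 3 called genes with the smallest adjusted p in the direction with more calls, 1 in the other and the most abundant gene; not all are printed, and some are not reported here. Snhg4, Snhg5, Snhg7, Snhg16, Snhg17, Snhg18 and Snhg20 were named for the promoter search after their values were seen. Magoh was named beside Magohb, likewise after its values were seen. Positions, lengths and snoRNA sequences come from GENCODE M21 on the same build, promoters from RefSeq GRCm38.p6. The counted model of a gene is the GENCODE transcript matched to the RefSeq transcript of its row, and its exons may differ from those counted.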

Additional observations from a re-analysis of the deposited data

Results flagged for a closer look

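In 10 of 162 groups of 4 libraries examined, 1 library stood far from the other 3 by Dixon's criterion, and chance flags about 1 in 20. None was a group of the 8 RNAs. In KO hepatocytes the distant library had 499 CPM for Rpl17 (550 to 560 in the others), 1501 CPM for Rps2 (1673 to 1708), 467 CPM for Eif4a2 (395 to 406) and 78.1 CPM for Sox9 (71.5 to 72.5). Smaller gaps in KO were 12.1 CPM for Rpp30 (11.7 in the others) and 27.8 CPM for Mir22hg (29.9 to 30.1). In WT hepatocytes they were 15.8 CPM for Srsf4 (17.9 to 18.3) and 58.0 CPM for Reln (62.6 to 63.2). Among KO values of genes next to the hosts, Prss12 was at 0.0423 CPM (0.0 in the others) and Rab42 at 0.0 CPM (0.0846 to 0.0999), with at most 1 count of Prss12 and 2 of Rab42 in a KO library.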

How the results depend on the processing

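Of 890 recomputed values, 827 kept their direction and call or moved less than the limits set, and Taf2, Snhg1, Snhg8, Snhg12 and Trnau1ap did so under all 18 alternatives run for each. With single libraries left out, log2 fold changes ran from 0.09 to 0.12 for Neat1, from -0.08 to 0.03 for Malat1, from -0.07 to 0.02 for Gas5, from -0.52 to -0.35 for Dancr, from 0.16 to 0.25 for Snhg6 and from -0.15 to 0.03 for Zbtb37. The 8 RNAs called higher then numbered 3 to 5, and those called lower 0 to 1. Higher calls ran from 1 to 3 for speckle proteins, 0 to 1 for RNase P and Z, 0 to 3 for small structured RNAs and 1 to 2 for cholangiocyte markers. Lower calls ran from 3 to 4 for other noncoding hosts and 0 to 1 for ribosomal protein hosts.

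With library totals in place of TMM, Neat1 was at 0.08, higher RNase P and Z calls were 0, higher cholangiocyte markers 1 and lower ribosomal protein hosts 1. Upper-quartile scaling gave 3 higher speckle genes and 3 lower noncoding hosts. DESeq2 gave 0 higher for RNase P and Z, 1 for small structured RNAs, 1 for cholangiocyte markers and 3 lower noncoding hosts, and limma-voom gave 1 higher cholangiocyte marker. A stricter filter (5 CPM in 4 libraries) tests fewer genes: it left out Dancr, so 0 of the RNAs were lower, and gave 2 higher speckle genes, 3 other long noncoding RNAs, 1 small structured RNA, 7 endothelial and 3 stellate markers, 2 lower noncoding hosts and 0 lower decay factors. With no filter, 8 other long noncoding RNAs were higher. Thinning to the smallest total gave 0 higher for RNase P and Z and 3 lower noncoding hosts. Taking Rn45s out of the totals, an alternative added after seeing the data, left 1 higher small structured RNA, since that gene is then not counted. For the other changes the cause was not tested.

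Libraries with the same number did not deviate together (correlations of deviations 0.0114, -0.0686, 0.00602 and -0.00751), and 0 of the libraries correlated best with its own number. With a replicate block, 3666 genes were higher and 3771 lower, against 3663 and 3784 without it; all 8 RNAs kept their calls, and 1 cholangiocyte marker was higher and 3 noncoding hosts lower. Counts of about 50 per library limit what can be said of Dancr, and the snoRNAs themselves could not be tested.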
